A study of Homo sapiens with 2 samples.

Results

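Barcodes with transcripts of genes that mark inhibitory neurons were selected from 2 split-seq libraries of human brain organoids, 133 of 11375 nuclei (1.17%) and 128 of 6779 cells (1.89%). Split-seq labels the RNA inside fixed cells or nuclei by repeated pooling and splitting over wells, and transcripts that carry the same series of labels are assigned to 1 barcode. Selection was on the measured transcripts of 8 genes, GAD1, GAD2, DLX1, DLX2, DLX5, DLX6, DLX6-AS1 and SLC32A1. Nuclei needed more than 2000 transcripts, cells more than 5000, and both at most 20% mitochondrial transcripts. A barcode was eligible with GAD1 or GAD2 detected and at least 2 of the 8 genes detected. The rule asked for the 400 nuclei and 300 cells with the highest share of transcripts from the 8 genes, but fewer were eligible, so that every eligible barcode was taken. All other barcodes that passed the filter served as the reference.

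The organoids were grown from H9, a line of human embryonic stem cells, and all of them therefore come from 1 line. The nuclei came from control (CO) organoids at day 45, isolated either from intact organoids or after dissociation to single cells. The cells came from CO at days 45, 55 and 70, from dissociated (DISS) organoids that were broken up to single cells at day 45, reaggregated and sampled at days 48, 55 and 70, and from constrained (CONS) organoids held in 3% agarose from day 13 and sampled at day 55. Every barcode of a library carries 1 sample name. Conditions, days and organoids therefore cannot be told apart, each library counted as 1 sample, no test was possible and no p-value is given. Intervals are exact 95% intervals (Clopper-Pearson for shares, exact Poisson for counts and their ratios) and cover counting error only. Values per sub-library, of which the nuclei had 2 and the cells 8, show technical spread.

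Inhibitory neurons release GABA, which GAD1 and GAD2 (glutamate decarboxylases) make from glutamate and SLC32A1 loads into synaptic vesicles. In the forebrain, most inhibitory neurons arise in the ganglionic eminences of the ventral telencephalon, where the DLX homeobox factors direct their fate, while the dorsal telencephalon gives rise to excitatory neurons. GABAergic neurons of the thalamus, midbrain, hindbrain and spinal cord use other factors, among them GATA2, GATA3, TAL1, SOX14, PAX2, LHX1 and LHX5.

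GAD2 and DLX6-AS1 are the rule genes whose upstream sequence is shown here, because they stand for the GABA-synthesis and the DLX side of the rule. Each run is the 250 bases before the start of the gene in RefSeq (GRCh38.p14), with the motif TAATTA, which DLX homeodomain factors can bind, in capitals. GAD2 lies on the plus strand and its run is chr10:26216122-26216371. DLX6-AS1 lies on the minus strand and its run is chr7:97014066-97014315.
GAD2: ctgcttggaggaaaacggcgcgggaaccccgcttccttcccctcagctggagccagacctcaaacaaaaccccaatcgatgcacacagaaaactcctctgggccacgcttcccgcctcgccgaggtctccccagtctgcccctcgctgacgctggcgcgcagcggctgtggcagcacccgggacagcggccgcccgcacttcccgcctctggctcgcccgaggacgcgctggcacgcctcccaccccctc
DLX6-AS1: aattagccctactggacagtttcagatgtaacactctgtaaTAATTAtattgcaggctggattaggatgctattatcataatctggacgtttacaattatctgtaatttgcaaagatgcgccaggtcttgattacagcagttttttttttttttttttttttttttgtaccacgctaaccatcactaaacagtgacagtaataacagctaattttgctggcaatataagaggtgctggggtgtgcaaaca
The motif reads the same on both strands. It was present in 1526 of 35116 upstream runs of this length (4.35%), and in 1 of 8 for the rule genes, that of DLX6-AS1. Among the 16 runs of the 15 genes that led the selected nuclei, 3 held it, those of PLCXD3, GFRA1 and ROBO3. For the 10 leading genes of selected nuclei with a transcript of a DLX gene or DLX6-AS1, 1 of 13 runs held it, that of PLCXD3. For the 10 of selected nuclei without such a transcript, 0 of 6 runs did. These counts are small and were not tested. The run of GAD2 had a GC content of 69.2% and that of DLX6-AS1 of 35.2%.

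In GENCODE annotation of GRCh38, GAD1 lies on chromosome 2 (170813213 to 170861151, plus strand) and GAD2 on chromosome 10 (26216665 to 26304558, plus strand). SLC32A1 lies on chromosome 20 (38724486 to 38729372, plus strand). DLX6-AS1 (chromosome 7, 96955141 to 97014088, minus strand) spans the whole of DLX6 (97005553 to 97011040, plus strand), and DLX5 lies beside it (97020396 to 97024950, minus strand). Whether the counting used strand is not given in the sources used here, so that reads of DLX6 and DLX6-AS1 may not be told apart.

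The rule genes themselves are a description, since they chose the members. In the nuclei, GAD2 was detected in 119 members, GAD1 in 117, DLX6-AS1 in 37, SLC32A1 in 13, DLX5 in 5, DLX6 in 4, DLX1 in 2 and DLX2 in 2. The pair of GAD genes therefore carried the selection, and 103 nuclei had both. A DLX-family transcript (DLX1, DLX2, DLX5, DLX6 or DLX6-AS1) was present in 40 nuclei and absent from 93. In the cells, GAD1 was detected in 112 members, GAD2 in 94, DLX6-AS1 in 35, DLX2 in 17, SLC32A1 in 13, DLX1 in 12, DLX5 in 8 and DLX6 in 7. The cells thus held more members with DLX1 or DLX2 than the nuclei did, at a greater depth. Both GAD genes were present in 78 cells, and a DLX-family transcript in 58.

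The share of transcripts from the rule genes had a median of 10.6 per 10000 in the nuclei (quartiles 5.26 and 19.5, highest 141) and of 0.709 in the cells (quartiles 0.264 and 1.45, highest 108.1). Exactly 2 rule-gene transcripts were present in 17 of the 133 nuclei and 56 of the 128 cells. A barcode with few rule-gene transcripts has a lower share the deeper it is, and the selected cells were deeper, so that the rule itself bears on this difference. The lowest member had 2 of 70965 transcripts in the nuclei (0.282 per 10000) and 2 of 375422 in the cells (0.0533 per 10000). Because eligibility and not the score set the limit, reference barcodes reached higher scores than these, up to 27.3 per 10000 in the nuclei (9 of 3303 transcripts) and 9.72 in the cells (8 of 8233). GAD1 or GAD2 was also present in 437 reference nuclei and 749 reference cells, with fewer than 2 rule genes detected.

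**Figure D1:**
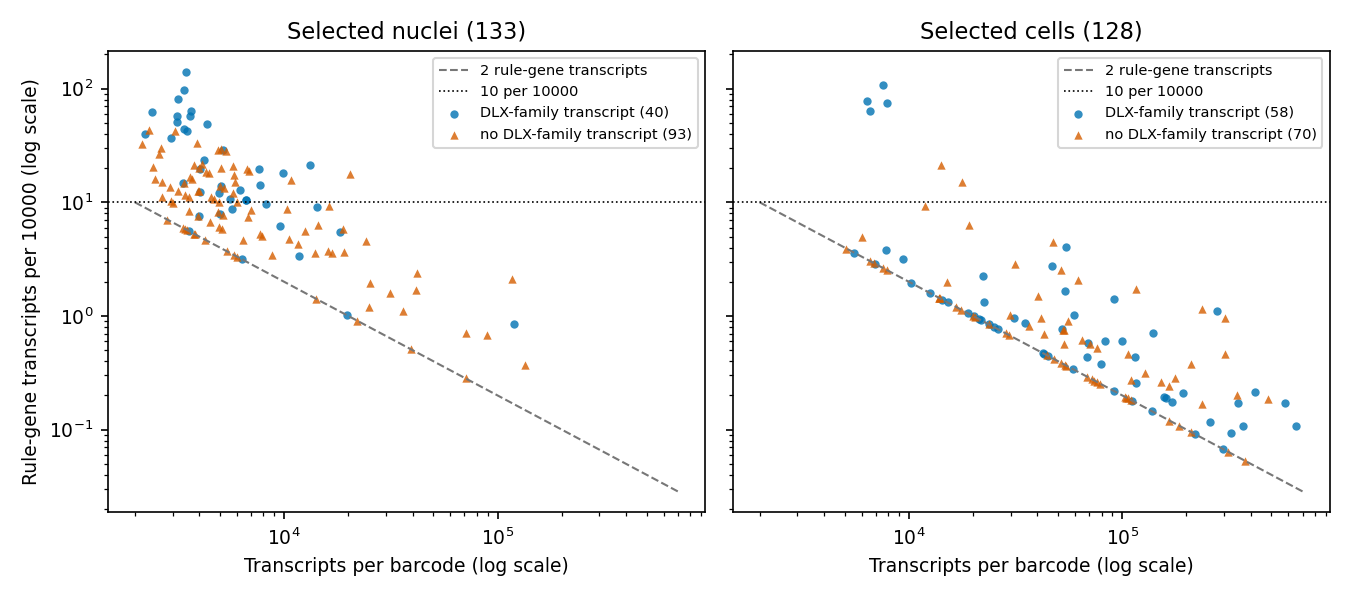
Share of transcripts from the 8 rule genes, per 10000, against transcripts per barcode in the selected nuclei (left) and cells (right), both axes log scale. Circles have a DLX-family transcript (40 nuclei, 58 cells), triangles have none (93 and 70). The dashed line marks 2 rule-gene transcripts, along which many of the cells lie, and the dotted line marks 10 per 10000, above which 71 nuclei and 6 cells lie.

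Selected barcodes were deeper than the reference, and far more so in the cells. The median depth was 5079 transcripts in selected nuclei against 4653 in reference nuclei, and 53885.5 in selected cells against 10632 in reference cells. Depth exceeded the 95th percentile of the reference in 27 of the nuclei (20.3%) and 71 of the cells (55.5%). The selected share rose with depth in the cells, from 0.448% (0.245 to 0.751) of those with up to 10000 transcripts to 17.4% (13.9 to 21.5) of those above 50000. In the nuclei it was 0.996% (0.765 to 1.28) up to 5000 transcripts, 0.943% (0.665 to 1.30) up to 10000 and 31.6% (12.6 to 56.6) in the 19 nuclei above 50000. When every barcode was thinned to 2000 transcripts, 58 of the 133 nuclei and 10 of the 128 cells still met the detection rule. Thinned to 5000, 110 nuclei and 18 cells met it. No doublet caller was applied, and the part of barcodes holding several cells was not tested.

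**Figure D2:**
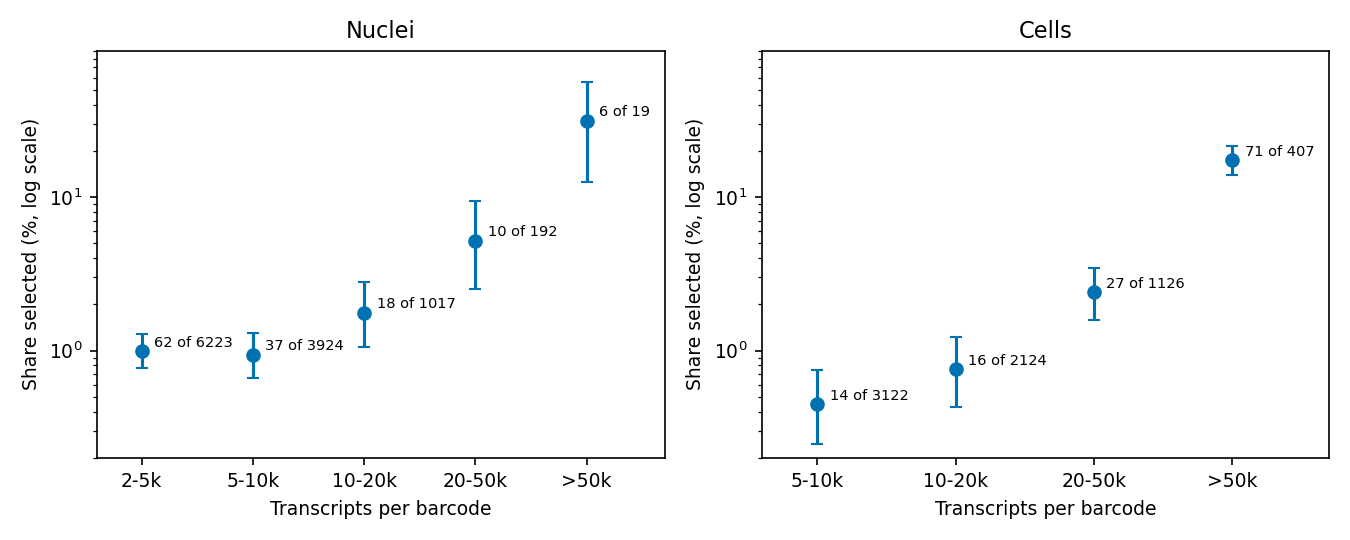
Share of barcodes selected (percent, log scale) by class of transcripts per barcode for nuclei (left) and cells (right), with exact 95% intervals and the number selected of all in each class. The share in the cells was 0.448% in the shallowest class and 17.4% in the deepest.

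Very shallow barcodes carried rule genes at levels near those of some selected cells. Barcodes of 10 to 100 transcripts held 0.273 rule-gene transcripts per 10000 (0.235 to 0.317) in the nuclei library. In the cells library they held 0.206 (0.192 to 0.222). Whether these barcodes hold free RNA or poorly captured cells was not tested. The pooled rate was 6.84 per 10000 in selected nuclei and 0.143 in reference nuclei, a group from which the rule had removed the members. It was 0.687 in selected cells and 0.116 in reference cells. GAD1 was the largest part of this material in both libraries, 118 of 179 rule-gene transcripts in the nuclei and 339 of 709 in the cells. The part of free RNA in single members was not tested. No selected barcode shared its name between the libraries, while 19 barcodes of those that passed the filter did.

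Outside the rule genes, NRXN3, a presynaptic adhesion molecule, was detected in 132 of 133 selected nuclei and at a higher level than in the reference. NRXN3 reached 46.7 and 40.8 transcripts per 10000 in the 2 sub-libraries of selected nuclei, and 4.01 to 4.17 in the reference. The members' values lay above those of the reference in both sub-libraries. The pooled ratio was 10.7 (10.4 to 10.9), and the level was higher in selected nuclei in 8 of 8 first-round wells (those of the first labelling step) with at least 5 of them. At 2000 transcripts each, 96.2% of selected and 34.0% of reference nuclei had NRXN3. For comparison, the 133 reference nuclei with the highest share of excitatory neuron genes such as NEUROD2 and TBR1 were taken of 1754 eligible (excitatory-like), and the 133 highest of 5549 by radial glia genes such as SOX2 and PAX6 (radial glia-like). These are extremes of their kind and shallower than the selected nuclei, with median depths of 3782 and 3466 transcripts. NRXN3 was at 0.774 per 10000 in the excitatory-like and 4.69 in the radial glia-like nuclei.

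Of 14410 genes with an expected count of at least 5 in the members, 338 (2.35%) were at least 2-fold higher in selected nuclei and 654 (4.54%) at least 2-fold lower, and the median ratio of all genes was 0.971. The whole counting interval lay beyond 2-fold for 138 genes (0.958%) on the higher side and 37 (0.257%) on the lower. Of the 338, 13 passed the count limit only through their transcripts in the members, PAX2 and LHX5-AS1 among them. Without nuclei above the 95th percentile of depth the lower count was 1614, and by the mean of the rates of single nuclei the counts were 769 higher and 2239 lower. Among the genes with the highest ratios, CA8, a protein that binds the IP3 receptor and is abundant in cerebellar Purkinje cells, reached 1.70 per 10000 against 0.0848 (20.1-fold, 17.3 to 23.2). The 2 sub-libraries gave 1.88 and 1.53 for CA8 in selected nuclei, and 26 of the nuclei had it. NXPH1, a secreted ligand of neurexins, was 17.3-fold higher (15.9 to 18.9) and detected in 44 nuclei. Its sub-library values were 3.26 and 5.44 per 10000. ZNF385D, a zinc finger gene, was 13.5-fold higher (14.8 against 1.10 per 10000) and UNC5C, a netrin receptor of growing axons, 12.7-fold (7.39 against 0.583). Both were detected in most selected nuclei, 96 and 90 of 133.

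PTGER3, a prostaglandin E2 receptor, was 14.6-fold higher, GFRA1, a receptor for the growth factor GDNF, 8.89-fold, and ROBO3, a receptor that guides axons across the midline, 9.18-fold. A single nucleus gave 30.6% of the ROBO3 transcripts. The transcription factor EBF3 was 8.92-fold higher and detected in 63 nuclei. The noncoding genes LHX1-DT (12.3-fold) and LHX5-AS1 (10.7-fold) neighbour the homeobox genes LHX1 and LHX5. The other genes named by rank were ERICH2-DT (13.3-fold), PLCXD3 (10.7-fold), VGLL3 and SLC35F3 (9.20-fold each). Ratios were larger without nuclei above the 95th percentile of depth, 23.5 for NRXN3, 46.3 for NXPH1 and 33.2 for ERICH2-DT.

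Several regulators of transcription that fell under the count limit for the gene counts had high ratios in the selected nuclei. They were chosen after their values were seen. How many of all genes under the limit reached such ratios was not counted, so that no background stands beside them. GATA3 was 81.4-fold higher (40.4 to 173) with 26 transcripts in 14 nuclei, SOX14 71.2-fold (27.9 to 196) with 14 transcripts in 11, and TFAP2A 34.9-fold (24.7 to 49.1) in 36 nuclei. SKOR2, a corepressor known from Purkinje cells, was 27.0-fold higher in 26 nuclei and LHX1 21.1-fold in 42. PAX2 was 71.2-fold higher (53.8 to 94.97) but reached the limit only through its transcripts in the members, since the rate of the reference gave an expected count of 1.97. Its sub-library values were 0.241 and 1.44 per 10000, and it was detected in 13 nuclei. One of these nuclei gave 27.9% of the PAX2 transcripts.

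**Figure D3:**
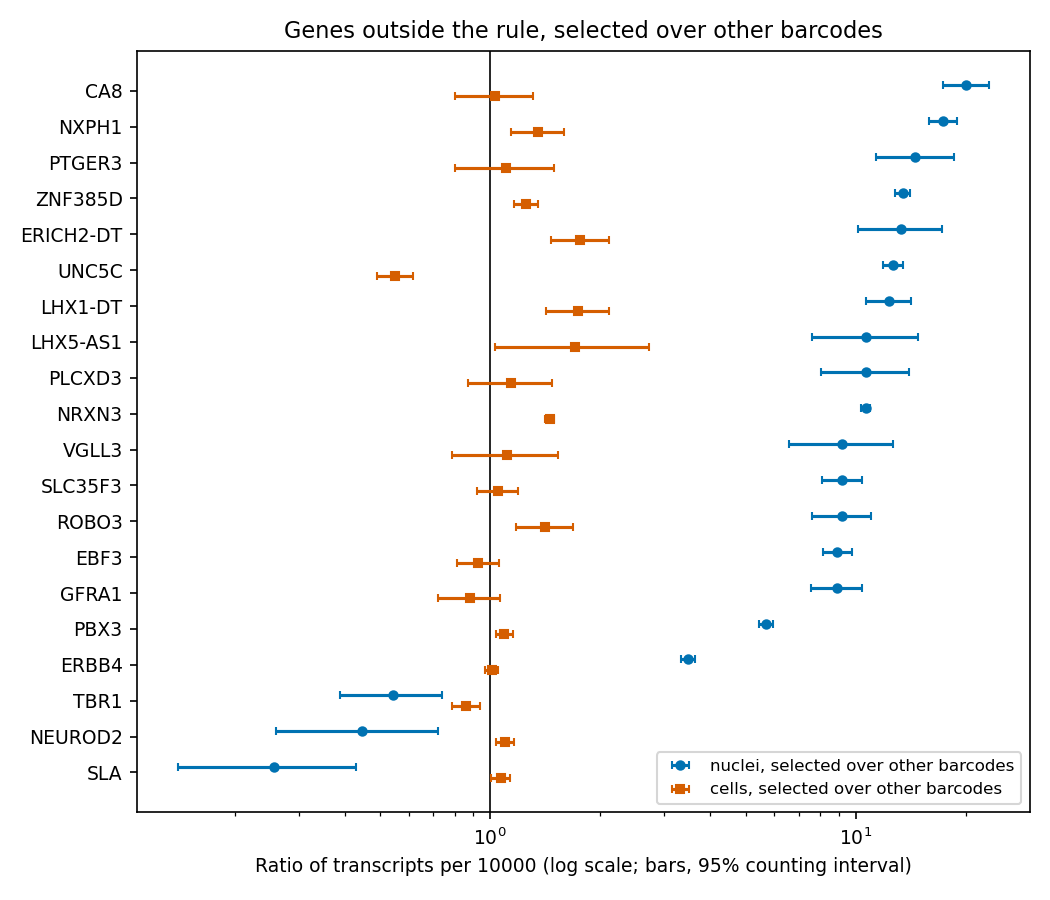
Ratio of transcripts per 10000 in selected over other barcodes (log scale, bars are 95% counting intervals) for named genes outside the rule, in nuclei (circles) and cells (squares). In the nuclei the ratios run from 0.256 for SLA to 20.1 for CA8, while in the cells those of NRXN3 (1.46), ERBB4 (1.01) and CA8 (1.03) lie near 1.

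The genes were also counted by lists of lineage genes. These lists were chosen with earlier results of these data known, so that their counts are a description and no independent support. Over all genes that passed, 2.35% were at least 2-fold higher in selected nuclei and 4.54% lower, with a median ratio of 0.971. Of 12 genes shared by GABAergic neurons outside the rule, 10 passed the count limit, 5 were at least 2-fold higher in selected nuclei and 0 lower, with a median ratio of 2.29. ERBB4, the neuregulin receptor of migrating interneurons, was 3.49-fold higher (12.8 and 15.2 per 10000 by sub-library, against 3.87 to 4.14). KIRREL3, an adhesion molecule, had a ratio of 1.89. At 2000 transcripts, at least 2 genes of this list were present in 93.2% (87.5 to 96.9) of selected nuclei, 40.8% of the reference, 17.3% of excitatory-like and 54.1% of radial glia-like nuclei.

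Genes of the 3 ganglionic eminences were counted by list, and the lists were not tested against each other. For the medial eminence (MGE), 1 of 8 genes that passed was at least 2-fold higher (NXPH1) and the median ratio was 1.00. Its defining factors NKX2-1, LHX6 and LHX8 and the peptide SST were at 0 in all 133 nuclei. For the caudal eminence (CGE), 3 of 8 were higher, ADARB2 (3.87-fold), NR2F2 (2.83-fold) and SP8 (2.73-fold), and NPAS1 was lower (0.375). For the lateral eminence (LGE), 3 of 10 were higher, PBX3 (5.69-fold), EBF1 (3.58-fold) and FOXP2 (3.54-fold), but the ratio of EBF1 was 0.820 in the 25 nuclei with at least 3 rule genes. At 2000 transcripts the share of selected nuclei with at least 2 genes was 69.9% for CGE against 30.9% of the reference, 24.1% for MGE against 12.0% and 88.7% for LGE against 71.6%. Radial glia-like nuclei reached 96.2% for the LGE list, above the selected nuclei. The CGE share was 70.0% in selected nuclei with a DLX-family transcript and 69.9% in those without. For MGE these shares were 47.5% and 14.0%, and for LGE 85.0% and 90.3%. Of 13 eminence progenitor genes 10 were detected in selected nuclei, while GSX1, GSX2 and OLIG2 were at 0. Of the 8 that passed, 0 were at least 2-fold higher and 1 lower, with a median ratio of 0.92. At 2000 transcripts, 21.1% of selected and 23.6% of reference nuclei had at least 2 of them.

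Genes of diencephalic and midbrain GABAergic neurons were present in a part of the nuclei. Of the 19 listed genes 5 passed the count limit, 1 was at least 2-fold higher and 0 lower, with a median ratio of 1.32. The gene that was higher was PAX2, which passed only through its transcripts in the members. NKX2-2, EN1 and GBX2 were at 0. At 2000 transcripts, 25 of 133 (18.8%, 12.6 to 26.5) had at least 2 of the 19 listed genes, against 5.73% of the reference, 4.51% of radial glia-like and 0 of 133 excitatory-like nuclei, which allows up to 2.74%. The Cajal-Retzius list, which shares LHX1, LHX5 and EBF3 with the genes above, gave 20.3% against 5.73%. Of 15 glutamate receptor genes 6 were higher and 0 lower, with GRM7 at 5.71-fold and GRIA4, an AMPA receptor subunit, at 3.75-fold. Of 15 genes of neuronal migration that passed, 3 were higher and 0 lower (median 1.47), and of 15 general neuronal genes 1 was higher (median 1.35). Beside these, 2.35% of all genes were higher and 4.54% lower (median 0.971). GABA-A receptor and chloride transport genes, which receive the GABA signal, gave 0 of 11 in either direction and a median ratio of 1.06. Of the neuropeptide list, 0 of 14 genes passed the count limit.

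Markers of other cell types differed by list. Of 13 excitatory neuron genes, 3 were at least 2-fold lower and 0 higher, with a median ratio of 0.825. SLA had a ratio of 0.256 and NEUROD2, a factor of excitatory neurons, of 0.447 (0.0761 and 0.131 per 10000 by sub-library, against 0.214 to 0.249). The summed level of the list was 5.47 to 5.77 per 10000 in selected nuclei and 7.46 to 7.51 in the reference. At 2000 transcripts, at least 2 excitatory genes were present in 9.02% (4.75 to 15.2) of selected nuclei and 29.9% of the reference, and in 2.82% of the 71 nuclei with at least 10 rule-gene transcripts per 10000. Of 12 dividing-cell genes 0 were at least 2-fold higher or lower (median 1.00), and the share with at least 2 of them was 12.8% against 21.1%. Of the 17 selected nuclei with at least 2 dividing-cell genes, 16 had under 10 rule-gene transcripts per 10000, and the share was 1.41% of the 71 nuclei at or above that level and 5.66% without nuclei above the 95th percentile of depth. Of 12 radial glia genes 0 were past 2-fold (median 0.747), with 37.6% against 67.7%. This share was 18.3% of the 71 nuclei with at least 10 rule-gene transcripts per 10000 and 59.7% of the 62 below. Choroid plexus and hem genes had 1 of 10 higher and 2 lower (median 0.763) and Cajal-Retzius genes 1 of 7 higher and 1 lower (median 0.999). HTR2C, a serotonin receptor abundant in choroid plexus, had a ratio of 0.478, and 1 nucleus gave 31.6% of its transcripts. The chaperone gene HSP90AA1 had a ratio of 0.440, while its level was higher in selected nuclei in 3 of 8 wells. The other genes named for low ratios, DNAJB6, LINC01748, JPH1, SUGCT, LYPD6, PDE1A, KLHL14 and PDLIM5, had ratios of 0.516 to 0.562.

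Selected nuclei with and without a DLX-family transcript were set side by side as a description, since the rule used the DLX genes and the genes named here were chosen after their values were seen. Their median depths were 4977.5 and 5184 transcripts, but the upper quartiles were 7669.5 and 12527, and 10.0% and 24.7% lay above the 95th percentile of the reference. The numbers of nuclei with a gene in these comparisons were not thinned, while ratios are per transcript. All 40 nuclei with DLX and 92 of 93 without had NRXN3, so that this gene was common to both. NXPH1 was detected in 21 of 40 nuclei with DLX (17.5 per 10000) and 23 of 93 without (0.632), a ratio of 27.7 (21.9 to 35.4). KCNJ3, a potassium channel subunit, was 9.85-fold higher with DLX, the synaptic vesicle gene SYNPR 6.88-fold, SNTG1 6.24-fold and ST8SIA5 15.4-fold (5.69 to 52.0). SCGN, a calcium-binding protein, was present in 5 nuclei with DLX and 1 without. A single well, A10, held 22 of the 40 nuclei with DLX, and without it the ratio of NXPH1 in selected nuclei over the reference was 6.29 and that of SYNPR 1.65. The condition of that well is not known.

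A set of genes was detected mostly in nuclei without DLX, among them factors known from other GABAergic regions. TFAP2A was detected in 36 of these 93 and 0 of 40 with DLX (at least 6.29-fold lower with DLX), and PAX2 in 13 and 0 (at least 13.3-fold lower). GATA3 was detected in 14 and 0 (at least 2.48-fold lower) and SOX14 in 11 and 0 (at least 1.33-fold lower), each bound taken against a floor of 3 transcripts over the group. SKOR2 was detected in 25 and 1, CA8 in 24 and 2, LHX1 in 40 and 2, EBF3 in 59 and 4, and EBF1 in 59 and 5. Of these, EBF1 is on the LGE list and CA8 is no transcription factor. At least 1 of LHX1, LHX5, PAX2, GATA2, GATA3, TAL1 and SOX14, a set chosen after the values were seen, was detected in 61 of 93 nuclei without DLX and 3 of 40 with it, which leaves 32 of the 93 with 0 of the 7. At least 1 of these 7 factors was detected in 48.1% (39.4 to 57.0) of all 133 nuclei and 1.90% of the reference, without thinning and at the higher depth of the selected nuclei. Shares of the Cajal-Retzius list moved with them, but this list holds LHX1, LHX5 and EBF3 itself. TP73, also on the Cajal-Retzius list, was lower in the selected nuclei as a whole, with a ratio of 0.233 over the reference. At 2000 transcripts, at least 2 Cajal-Retzius genes were present in 27 of 93 nuclei without DLX (29.0%) and 0 of 40 with it. Diencephalic and midbrain genes were present in 25 of 93 (26.9%) and 0 of 40, where 0 of 40 allows up to 8.81%. The diencephalic and midbrain list holds all 7 factors of the set above. Both shares therefore recount in part the same genes and are no separate observation. The part of Cajal-Retzius cells in these values was not tested. Other lists separated the nuclei less. At least 2 of the shared GABAergic genes were present in 97.5% of nuclei with DLX and 91.4% without, and CGE genes in 70.0% and 69.9%.

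**Figure D4:**
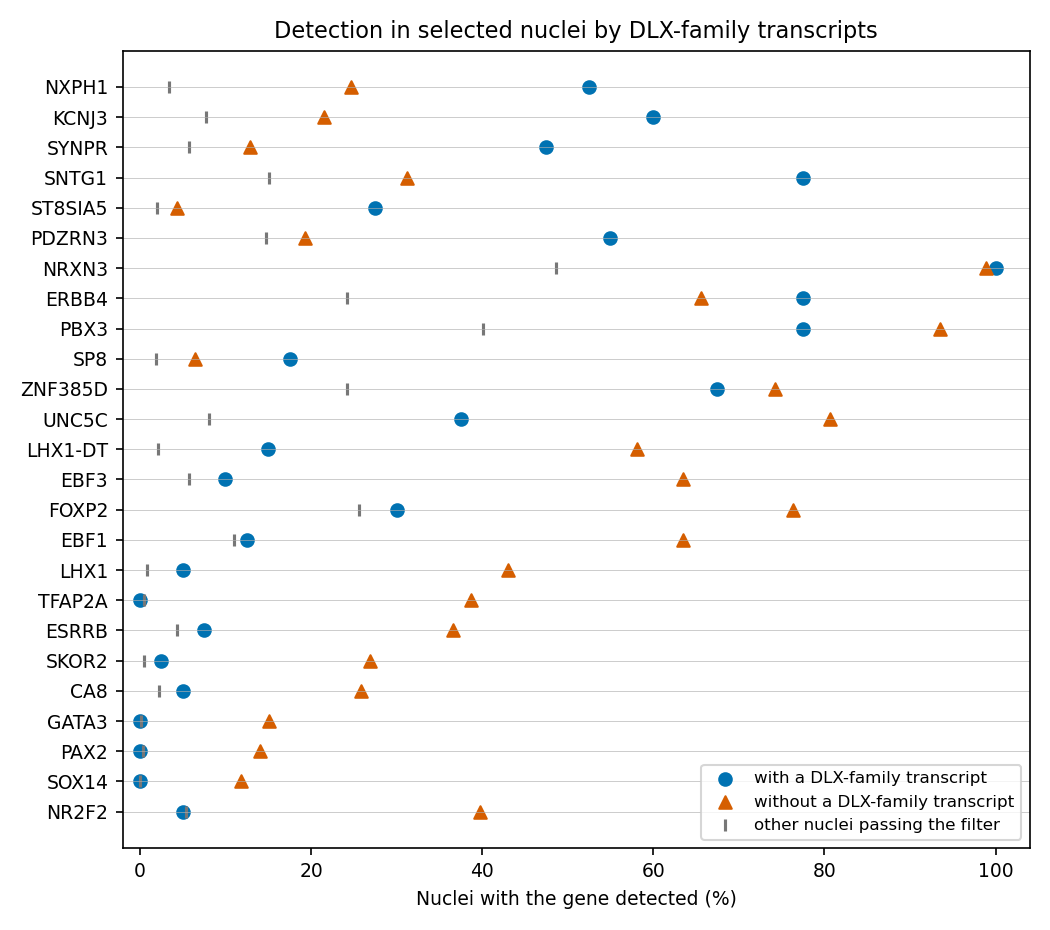
Share of nuclei (percent) in which each gene was detected, for the 40 selected nuclei with a DLX-family transcript (circles), the 93 without (triangles) and the other nuclei that passed the filter (bars). NRXN3 was detected in 40 and 92 nuclei, NXPH1 was more frequent with DLX, and TFAP2A, LHX1 and EBF3 were more frequent without.

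Clustering of the selected nuclei without the rule genes gave 7 sub-clusters, named here by number and leading genes, which are what defined them and are no finding. Sub-cluster 7 (13 nuclei, led by ST8SIA5 and PDZRN3) had a DLX-family transcript in all 13 and a median of 57.3 rule-gene transcripts per 10000, and 10 of its nuclei came from well A10. Sub-cluster 4 (17 nuclei, led by NXPH1, SALL3 and KCNIP4) had DLX in 16. Sub-clusters 3 (17 nuclei, led by SOX14, GATA3, DMBX1 and CHRM2) and 6 (15 nuclei, led by ROBO3, TFAP2B and NHLH2) had DLX in 0. Sub-cluster 2 (26 nuclei, led by SKOR2, CA8, POSTN and ESRRB) had DLX in 1. NR2F2, on the CGE list, was detected in 0 nuclei of sub-clusters 4 and 7. In sub-clusters 2, 3 and 6 it was detected in 6, 8 and 7. FOXP2, on the LGE list, was in 3 and 3 nuclei of sub-clusters 4 and 7, against 25, 12 and 12. PBX3, also on the LGE list, was in 17 and 8, against 26, 17 and 15. The remaining sub-clusters were 5 (15 nuclei, led by genes that include SLC6A5, the neuronal glycine transporter), with DLX in 6, and 1 (30 nuclei, led by CLIC6, GTSE1, TYMS and BUB1), with DLX in 4. Sub-cluster 1 had a median depth of 20843 transcripts and a median of 2.25 rule-gene transcripts per 10000, the deepest and the lowest of the 7. Genes of dividing cells were among its leading genes, as was CLIC6 of the choroid plexus list. CLIC6 was detected in 10 of its 30 nuclei, and a single nucleus gave 60 of the 82 CLIC6 transcripts.

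**Figure D5:**
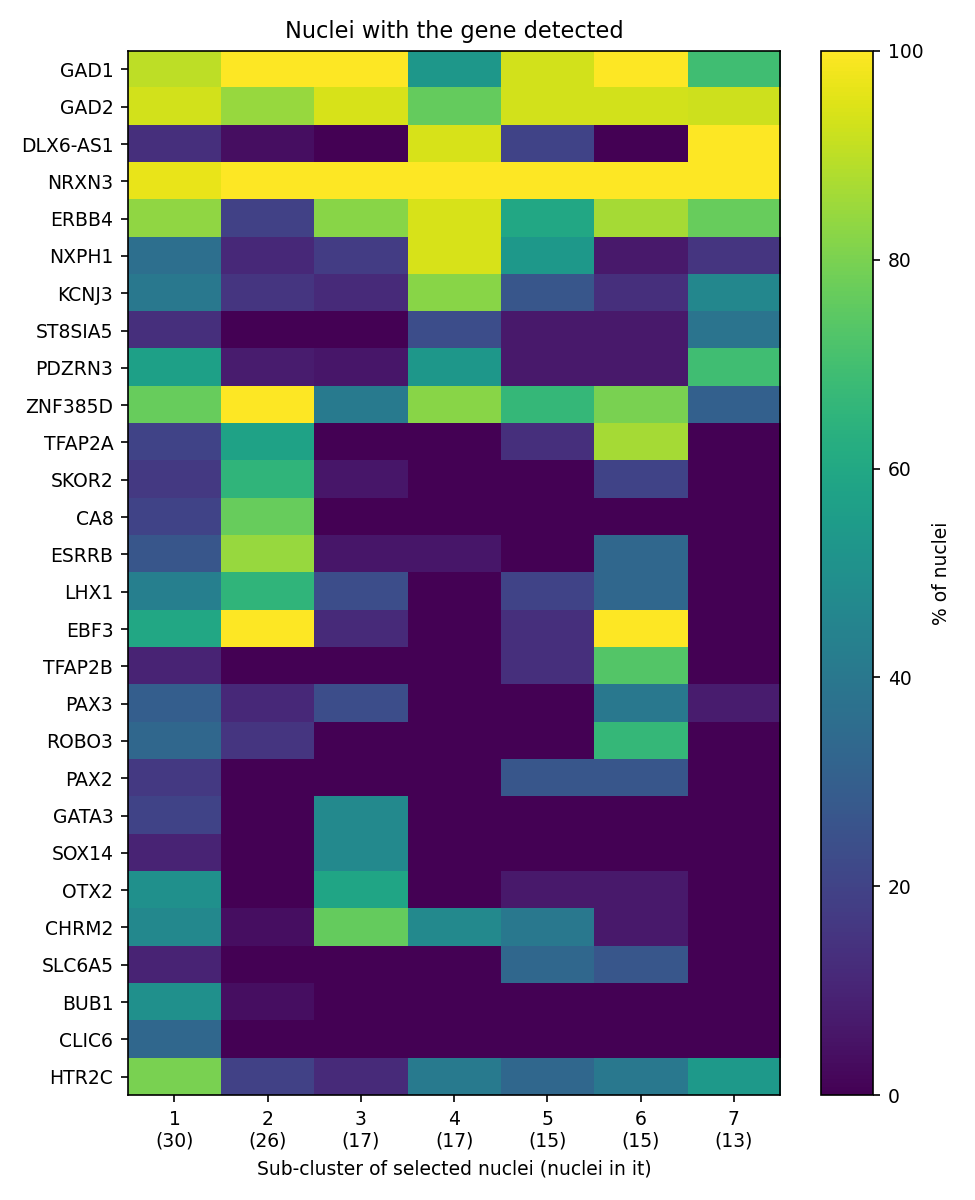
Share of nuclei (percent, colour) in which each gene was detected in the 7 sub-clusters of the 133 selected nuclei, with the number of nuclei in each below its number. DLX6-AS1 was detected in 94.1% of sub-cluster 4 and 100% of sub-cluster 7, SKOR2 in 65.4% of sub-cluster 2, GATA3 in 47.1% of sub-cluster 3 and ROBO3 in 66.7% of sub-cluster 6.

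Some leading genes were detected in the same nuclei more often than others. Of 26 nuclei with SKOR2, 19 had TFAP2A and 26 had ZNF385D. Of 26 nuclei with CA8, 17 had SKOR2, 17 had LHX1, 26 had EBF3 and 22 had ESRRB, while 0 had GATA3 and 0 had SOX14. Over all 133 selected nuclei, ZNF385D was in 96, EBF3 in 63, LHX1 in 42, ESRRB and DLX6-AS1 in 37 each and TFAP2A in 36. SKOR2 was in 26, GATA3 in 14, PAX2 in 13 and SOX14 in 11, so that a count of 0 for GATA3 or SOX14 says little. Detection here was not thinned, and the part of depth in it was not tested. SKOR2, CA8 and ESRRB are among the genes that defined sub-cluster 2. GATA3 and SOX14 were together in 7 of the 14 nuclei with GATA3, NXPH1 and DLX6-AS1 in 18 of the 44 with NXPH1, LHX5 and PAX2 in 2 of the 11 with LHX5, and CA8 and DLX6-AS1 in 2. Well A3 had the highest selected share of the 12 first-round wells (21 of 551 nuclei, 3.81%), A10 the most members (29, of which 22 had DLX) and A9 24 members with DLX in 0. The selected share per well ranged from 0.264% to 3.81% (median 1.02%). What each well held is not given in the sources used here.

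In the cells, pooled ratios of genes outside the rule gave little support for the label, while thinned shares of some lists lay above the reference. Of 27179 genes, 250 (0.92%) were at least 2-fold higher and 409 (1.5%) at least 2-fold lower in selected cells, and the whole counting interval was beyond 2-fold for 7 (0.0258%) higher and 7 (0.0258%) lower. Of the 250, 46 passed the count limit only through the members. By the mean of the rates of single cells, 1327 genes were at least 2-fold higher and 1181 lower. Of the 12 genes shared by GABAergic neurons, 10 passed and 0 were at least 2-fold higher, with a median ratio of 1.01, beside 1.02 over all genes. NRXN3 had a ratio of 1.46, ERBB4 of 1.01, ZNF385D of 1.25 and CA8 of 1.03, while UNC5C had 0.549. The excitatory factor NEUROD2 had a ratio of 1.10, with 7 of 8 sub-libraries higher. After thinning, at least 2 excitatory genes were present in 35.9% (27.7 to 44.9) of selected cells and 41.3% of the reference, and dividing-cell genes in 33.6% against 27.7%. At least 2 of the shared GABAergic genes were present in 50.8% (41.8 to 59.7) of selected cells after thinning, against 36.8% of the reference and 47.7% of radial glia-like cells, and CGE genes in 57.0% (48.0 to 65.7) against 35.2% and 39.8%. Pooled ratios weigh the deepest cells most, and these had few rule-gene transcripts for their depth. The part of this weighting in the ratios near 1 was not tested. The selected cells are called here by the rule genes alone.

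The 7 genes above the interval in cells were GATA3 (3.85-fold, 2.71 to 5.41), CCL2, COL3A1, LINC01210 and 3 genes named by identifier, ENSG00000224326, ENSG00000230668 and ENSG00000286474. In the 26 cells with at least 3 rule genes, the ratios of the last 3 turned, to 0.300, 0.0 and 0.485. GATA3, a factor of midbrain GABAergic neurons, was detected in 21 selected cells and higher in 6 of 8 sub-libraries. The collagen gene COL3A1 had a ratio of 7.66, but 92 of its 102 transcripts came from 1 cell. LINC01210 had a ratio of 10.0, but it passed the count limit only through its transcripts in the members. The 7 on the lower side were ACTA2, FREM2 (0.430), SLC25A31, CDC20B, IL22RA2, RPL5P18 and CROCC2. Of the 14410 genes passing in nuclei, PAX2 (71.2 and 2.41) was the 1 gene at least 2-fold higher in both libraries (0.00694%), though in the nuclei it passed the count limit only through the members and its ratio in cells was 1.00 when at least 3 rule genes were asked for, and TP73, RIBC2, CDC20B and MAPK15 were the 4 at least 2-fold lower in both (0.0278%). By rank among genes in at least 10% of selected cells, GATA3 led 15 genes with ratios of 2.56 to 3.85, of which most were noncoding or unnamed, such as PFN2-AS1 (2.95) and RGMB-AS1 (2.86). The 10 named for low ratios, from FREM2 (0.430) to E2F7 (0.589), included NRG1, the ligand of ERBB4, at 0.534 (0.519 to 0.548). The libraries differ in material, age and filter, and no test compared them.

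The selected cells gave 5 sub-clusters when clustered without the rule genes. Sub-cluster 2 (28 cells) was led by genes of dividing cells such as CDC20 and TOP2A, and sub-cluster 3 (26 cells) by CLIC6, AQP1 and HTR2C, which are abundant in choroid plexus. Sub-cluster 4 (25 cells) was led by genes that include ROBO3, VSTM2A and LHX5-AS1 and had the highest median of rule-gene transcripts, 2.52 per 10000. The other two, of 39 and 10 cells, were led mostly by unnamed or little known genes, and all 5 included cells with a DLX-family transcript.

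The cells with the highest shares of rule-gene transcripts had some of the leading genes of the nuclei at high ratios. The 6 cells with at least 10 rule-gene transcripts per 10000, against 71 nuclei, had ratios over the reference of 45.7 for NRXN3, 21.1 for ERBB4, 17.6 for PBX3 and 14.1 for ZNF385D. Of these, 4 carried DLX6-AS1 with 72, 37, 36 and 35 transcripts, and NRXN3 with 190, 83, 179 and 69. They came from wells A1, D7, D7 and A1. The other 2 had no DLX transcript, but GAD1 with 21 and 14, GATA3 with 5 and 5, LHX1 with 2 and 13, SOX14 with 1 and 1 and PBX3 with 27 and 87 transcripts. These 2 cells gave most of the PBX3 transcripts. NXPH1, which was 37.1-fold higher in the 71 nuclei at the same limit, was at 0 in all 6, as were SKOR2, TFAP2A, PAX2 and NEUROD2, but 0 of 6 cells allows a share of up to 45.9%, and NXPH1 was detected in 28.2% of those nuclei. Selected cells were present in 31 of 48 first-round wells, at most 16 in a well (D9, 12.5% of selected cells and 5.22% of all). At least 1 of the 7 other factors was detected in 38.3% (29.8 to 47.3) of selected cells and 6.56% of the reference, at the higher depth of the selected cells. It was in 12 of 58 selected cells with a DLX-family transcript and 37 of 70 without.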

How the data were processed

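Brain organoids of the H9 line were profiled by split-seq in 2 libraries, 1 of cells (8 sub-libraries) and 1 of nuclei (2 sub-libraries). The values the authors deposited are raw counts of transcripts per barcode and gene, made with the Parse Biosciences pipeline on GRCh38, without normalization, cell selection, doublet removal or background correction. The authors used scDblFinder and DecontX, whose output was not used here. Barcode totals equalled the deposited metadata in 197446 nuclei and 1303455 cells barcodes.

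Members and gene lists were chosen with earlier results of these data known. Rates are summed transcripts per 10000. Genes were counted when the expected count in members was at least 5 and called at 2-fold. Excitatory-like and radial glia-like groups were reference barcodes with the highest share of NEUROD2, NEUROD6, TBR1 and related genes, or of PAX6, SOX2 and related genes, as many as members, taken from the top of those eligible. For shares of list genes each barcode was thinned to 2000 transcripts. Sub-clusters used Leiden clustering in scanpy 1.11.5 (igraph 0.11.9, scikit-learn 1.9.0) without the rule genes. Intervals came from scipy 1.17.1 in Python 3.11.15, tables from pandas 2.3.3 and numpy 2.4.6, and plots from matplotlib 3.10.9. Coordinates are from GENCODE. The ratio step was tested on simulated data.

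Named genes were the 15 with the highest ratio detected in at least 10% of members, the 10 with the lowest ratio detected in at least 25% of the reference, and genes of the fixed lists. Other genes named, such as GATA3, SOX14, TFAP2A, SKOR2, COL3A1 and those that set the nuclei with and without DLX apart, were chosen after their values were seen. Selected nuclei held 1628765 transcripts in all and selected cells 12949121, so that genes with few counts have wide intervals. Some genes of the lists are not reported here by name.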

Additional observations from a re-analysis of the deposited data

Results flagged for a closer look

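Barcodes of 10 to 100 transcripts, which no comparison used as cells or nuclei, carried rule-gene transcripts at 0.273 per 10000 in the nuclei library and 0.206 per 10000 in the cells library. These barcodes were not among the nuclei or cells compared, and what they hold was not tested.

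Reference barcodes with at least 2 DLX-family transcripts and neither GAD1 nor GAD2, which the rule leaves out, numbered 8 in the nuclei and 23 in the cells.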

How the results depend on the processing

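Each library is 1 sample, so that the values cannot be set against biological replicates, and DLX1, DLX2, DLX5 and DLX6 rest on few transcripts in the nuclei. No paired analysis was possible because each library has replicate 1 alone and no test was made. Scores of at least 10 per 10000 and thinning before selection were alternatives chosen after seeing the data.

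Thinning to 2000 transcripts before selection left 58 nuclei and 10 cells. A limit of fewer (200 and 150) or more barcodes gave the same members, since 133 and 128 were eligible.

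Of the counts of genes, a 1.5-fold limit gave 1072 higher and 1672 lower in nuclei and 1563 and 1324 in cells, and a 4-fold limit 46 and 131 in nuclei and 2 and 56 in cells. An expected count of at least 2 gave 665 and 1469 in nuclei and 881 and 1310 in cells, and of at least 20 gave 149 and 166 in nuclei and 22 and 45 in cells. The mean of per-barcode rates gave 769 and 2239 in nuclei and 1327 and 1181 in cells. With at least 3 rule genes 190 genes were higher in nuclei and 666 lower in cells. At a score of at least 10 the lower counts were 1708 in nuclei and 689 in cells, and without barcodes above the 95th percentile of depth 1614 were lower in nuclei.

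Shares depended on the number of list genes asked for. With at least 1 gene, the shares in nuclei and cells were 25.6% and 56.3% for dividing, 40.6% and 69.5% for excitatory, 96.2% and 89.1% for CGE, 98.5% and 98.4% for LGE, 60.9% and 59.4% for MGE, 54.1% and 40.6% for diencephalic and midbrain, and 100% and 78.1% for pan-GABAergic genes. With at least 3 genes, they were 19.5% for dividing in cells, 1.504% and 18.8% for excitatory, 30.8% and 17.2% for CGE, 68.4% and 36.7% for LGE, 5.26% and 4.69% for MGE, 4.51% and 1.56% for diencephalic and midbrain, and 66.2% and 28.9% for pan-GABAergic genes. Without thinning they were 25.6% and 92.2% for dividing, 31.6% and 95.3% for excitatory, 89.5% and 100% for CGE, 97.0% and 99.2% for LGE, 48.9% and 92.2% for MGE, 44.4% and 79.7% for diencephalic and midbrain, and 99.3% and 99.2% for pan-GABAergic genes. Thinned to 1000, they were 6.02% and 16.4% for dividing, 18.8% for excitatory in cells, 42.1% and 29.7% for CGE, 74.4% and 44.5% for LGE, 11.3% and 8.59% for MGE, 9.77% for diencephalic and midbrain in nuclei, and 83.5% and 24.2% for pan-GABAergic genes.

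With at least 3 rule genes the shares were 4.00% for dividing, 80% for LGE, 48.0% for MGE and 4.00% for diencephalic and midbrain genes in nuclei, 84.6% for CGE and 61.5% for pan-GABAergic genes in cells, and 40.0% of nuclei in the fullest well. At a score of at least 10 they were 1.41% for dividing and 2.82% for excitatory genes in nuclei, and 16.7% for dividing, 16.7% for excitatory, 100% for CGE, 33.3% for diencephalic and midbrain and 100% for pan-GABAergic genes in cells, with 33.3% of the 6 cells in the fullest well. Without barcodes above the 95th percentile of depth, dividing genes gave 5.66% and excitatory genes 4.72% in nuclei. A resolution of 0.25 gave 4 sub-clusters of nuclei and 2 of cells.

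Of the ratios of single genes under the alternatives, 352 stayed within the counting interval of the main ratio in nuclei. A further 205 moved and 1 changed direction, and in cells the numbers were 379, 121 and 5. Limits of fewer or more barcodes, and a reference without eligible barcodes, repeat the main ratio because every eligible barcode was a member. These settings therefore stayed by construction and raise the numbers that did so. With at least 3 rule genes the ratio of EBF1 in nuclei was 0.820, and in cells that of ENSG00000224326 was 0.300, of ENSG00000230668 0.0, of ENSG00000286474 0.485 and of PAX2 1.00. Without cells above the 95th percentile of depth the ratio of ENSG00000228999 in cells was 1.24. The cause was not tested.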
